A study of Homo sapiens with 9 samples.

Results

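Collagen chain genes were followed across 9 Affymetrix U133 Plus 2 arrays of HSF-6, a line of human embryonic stem cells. The members were all probe sets annotated to a single gene whose symbol reads COL, a number, A and a number: 112 probe sets of 43 genes, among 41091 single-gene probe sets of 19775 genes on the table. Of these, 33 genes were bright enough to be tested, among 13518 genes tested in all. Type XVII collagen was not analysed here.

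The arrays fell into 3 groups of 3: HSF-6(8) without agents (called untreated below), and 2 treated groups, HSF-6(8) and HSF-6(S9), both of which received butyrate and DZNep. The labels give 8 and S9 as designations of the same line and no other genotype. All cells were collected after 11 passages with or without the agents and after growth for 6 days, and were dissociated with TrypLE Express. Butyrate, a short-chain fatty acid, blocks enzymes that remove acetyl groups from histones. DZNep is an inhibitor of S-adenosylhomocysteine hydrolase, and through it lowers methylation by methyltransferases, those of histones included. Both agents were always given together, their doses were not given in the sources used here, and no untreated HSF-6(S9) array was analysed here, so a difference between treated HSF-6(S9) and untreated HSF-6(8) joins subline and treatment. Nothing in the labels says that the 3 arrays of a group came from separate cultures, so every p-value measures only the spread between these arrays, which may be technical.

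Collagens are the main fibrous proteins of the extracellular matrix. Each molecule is a helix of 3 chains, often the products of different genes, and the types differ in what they build: types I, II, III, V and XI form fibrils, type IV forms the sheet of basement membranes, type VI forms beaded filaments, and the fibril-associated collagens (FACITs, such as types IX, XII and XIV) sit on the surface of fibrils. Type I dominates in skin, bone and tendon, type II in cartilage, and type IV is among the first matrix proteins of the early embryo. Type IV chain genes lie in pairs, head to head, and each pair is transcribed outwards from the stretch between its start sites.

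The promoters of the members on which the type IV and type XII results turn are shown here because the array values of the paired genes can be read beside the sequence they share. They come from the RefSeq table of GRCh38.p14, which matched 31 of the 43 members and 23 of the 33 tested ones. Capitals mark the letters GGGCGG, which are the core of a GC box. They also mark the CCAAT box, by its own letters, and a core form of the TATA box, TATAAA. All were searched on both strands, so that a match on the other strand appears as its reverse complement. Between the starts of COL4A1 and COL4A2 lie 126 bases (chr13:110307158-110307283, read on the + strand towards COL4A2), which hold 1 GC box, 1 CCAAT box and 20 CpG sites.
between COL4A1 and COL4A2: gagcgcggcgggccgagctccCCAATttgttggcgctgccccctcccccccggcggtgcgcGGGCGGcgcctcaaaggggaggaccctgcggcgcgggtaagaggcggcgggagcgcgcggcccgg
The starts of COL4A5 and COL4A6 lie 379 bases apart. The 250 bases before COL4A5 (chrX:108439588-108439837, + strand) hold 2 CCAAT boxes and 8 CpG sites, and the 250 bases before COL4A6 (chrX:108439459-108439708, - strand) hold 3 CCAAT boxes and 7 CpG sites; the windows overlap.
before COL4A5: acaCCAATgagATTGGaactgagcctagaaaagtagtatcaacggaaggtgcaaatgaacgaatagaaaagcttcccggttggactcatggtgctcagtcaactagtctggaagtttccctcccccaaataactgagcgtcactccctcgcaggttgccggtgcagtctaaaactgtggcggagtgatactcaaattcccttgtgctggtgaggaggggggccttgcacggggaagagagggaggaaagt
before COL4A6: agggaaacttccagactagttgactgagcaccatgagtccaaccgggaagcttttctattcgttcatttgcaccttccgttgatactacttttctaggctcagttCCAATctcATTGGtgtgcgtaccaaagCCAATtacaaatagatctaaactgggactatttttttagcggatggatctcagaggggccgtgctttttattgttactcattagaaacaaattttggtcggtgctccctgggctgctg
The 250 bases before COL12A1 (chr6:75206054-75206303, - strand) hold 1 GC box and 21 CpG sites.
before COL12A1: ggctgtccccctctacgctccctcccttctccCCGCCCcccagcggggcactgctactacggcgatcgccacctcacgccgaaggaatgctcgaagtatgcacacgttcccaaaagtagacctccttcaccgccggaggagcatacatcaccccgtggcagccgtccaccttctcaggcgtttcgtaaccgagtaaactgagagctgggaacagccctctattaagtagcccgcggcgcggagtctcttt
Motifs were counted over the 250 bases before the start in each window of the table. The collagens had 43 windows, which belong to the 31 matched genes and not to all members. A GC box was present in 55.8% of the collagen windows (24 of 43) and in 42.6% of all 35116 windows. A CCAAT box was present in 25.6% and 32.0%, and TATAAA in 16.3% and 10.7%. The median window held 13 CpG sites among the collagens and 11 among all. A match describes the letters of a window and shows no binding.

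Every signal below is the authors' MAS5 signal, a linear brightness scaled to the same trimmed mean on each array, and belongs to the kept probe set of its gene with the highest mean of log2(signal + 16). Signals of different probe sets are not levels that can be set against each other. Differences are on the scale log2(signal + 16), with the standard error of limma's fit over all 9 arrays (n = 3 per group) and p-values adjusted by Benjamini-Hochberg over all 13518 genes. A gene was called at an adjusted p under 0.05 and a change of at least 2-fold. The median signal of the arrays ran from 64.8 to 82.9.

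The arrays themselves differed in ways the groups do not explain. Over all genes, the first treated HSF-6(S9) array correlated more closely with the first and second treated HSF-6(8) arrays (r = 0.9894 and 0.9854) than with the other arrays of its own group (0.9658 and 0.9718). On the third treated HSF-6(8) array, 11 measured endoderm markers of a list of 12 summed to a signal of 14904, against 2144 to 2660 on the other 2 arrays of that group, 1175 to 1635 in untreated cells and 2264 to 2489 in treated HSF-6(S9). All 10 mesoderm markers summed to 8173 there, against 1303 to 2183 on the other 8 arrays. EOMES (3419), KDR (1550), MIXL1 (1541) and TBXT (884) gave most of that sum. HAND1 (133), TBX6 (97.3) and PDGFRA (426) were not highest on that array, and HAND2 and FOXF1 stayed below the array median everywhere. All 13 fibroblast markers summed to 21089 to 32005 in untreated cells, 17921 to 41649 in treated HSF-6(8) and 17858 to 27715 in treated HSF-6(S9), highest on the third array of each group, while FAP and PRRX1 were below the median on all arrays. VIM and TAGLN gave most of each fibroblast sum. The pluripotency markers, read as a check of the labelled cell type, summed to 122877 to 161331 in untreated cells, 121111 to 128133 in treated HSF-6(8) and 109288 to 186438 in treated HSF-6(S9), and none of the 8 measured of 10 was below the median on all arrays. Of the other marker lists, 10 neuroectoderm markers of 11 summed to 25459 to 41426 over the 9 arrays, 9 trophoblast markers of 11 to 4133 to 6133 and 8 endothelial markers to 881 to 2324. PAX3, GATA3 and VWF, the only called marker of each of these 3 lists, rose in both comparisons with untreated cells, by 2.85, 2.17 and 1.95 in HSF-6(8) (adjusted p = 0.0405, 0.0013 and 0.0405 by limma). TFAP2C, the brightest trophoblast marker, was lower in both (-0.32 and -0.37), as was the endothelial marker PECAM1 (-0.25 and -0.29). NEUROG2, CDX2, ELF5, CDH5 and ESAM of these lists were below the median on all arrays. The part of such cells in the collagen values was not tested.

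Of the 33 tested collagen genes, 26 were above the array median on all 9 arrays. The other 7 were not. COL12A1 passed the filter only through the 3 untreated arrays, just inside the limit of 3 arrays, and COL14A1 through the 3 untreated arrays and 1 treated HSF-6(8) array, so for these a lower value in treated cells was partly set by the filter. COL11A1 and COL6A3 were above the median on 1 untreated array and on most treated arrays. Just outside the limit lay COL8A1 and COL28A1, above the median on at most 2 arrays, with highest signals of 222 and 73.8. The 10 genes not tested were COL4A3, COL6A5, COL6A6, COL8A1, COL10A1, COL15A1, COL19A1, COL24A1, COL25A1 and COL28A1. COL4A3 was covered by 7 probe sets, none of which exceeded 51.6.

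**Figure D1:**
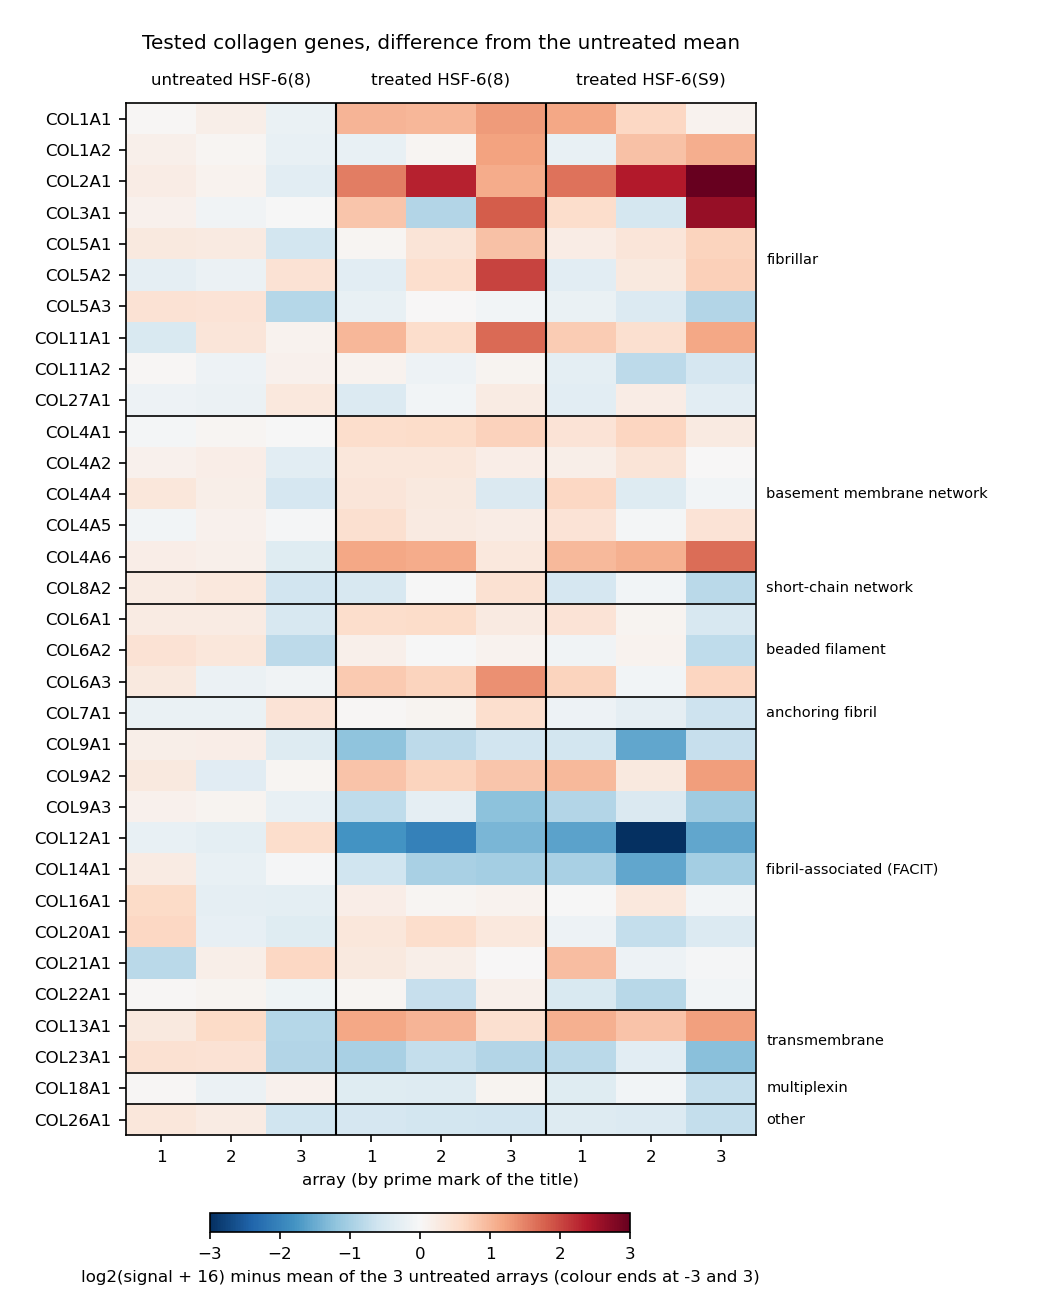
Rows are the 33 tested collagen genes by class, columns the 9 arrays by group and number, and colour the log2(signal + 16) minus the mean of the 3 untreated arrays, from blue (lower) to red (higher). The COL2A1 row is red on all 6 treated arrays, the COL12A1 row blue, and the red of COL3A1 and COL5A2 is strongest on the third arrays.

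Butyrate and DZNep in HSF-6(8) gave no called collagen gene in either direction in the fit without pairs. In that fit 0.747% of all genes tested were called higher (101 genes) and 0.0962% lower (13 genes). With the replicate numbers as a block 1 member, COL12A1, was called lower. That fit called 138 of all 13518 genes higher and 24 lower. At an unadjusted p under 0.05, 8 collagen genes were higher and 5 lower in treated cells, which are 24.2% and 15.2% of the members against 6.78% and 3.07% of all genes. The 3 treated arrays lay wholly above the 3 untreated arrays for 10 members (30.3%, against 10.3% of all genes) and wholly below for 4 (12.1%, against 7.06%). Of the 4, COL12A1 and COL14A1 entered the tested set mainly through the untreated arrays, and of the 10, COL11A1 and COL6A3 mainly through the treated ones, so these counts are a description and support no excess in either direction. The median difference was 0.20 among the members, of which 22 were positive, and 0.00 among all genes.

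By class, the 10 tested fibrillar chains had a median difference of 0.51 and the 5 type IV chains one of 0.32, all 5 positive. The 3 type VI chains had a median of 0.44. The 9 FACIT chains had a median of -0.16. The classes were not tested against each other.

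**Figure D2:**
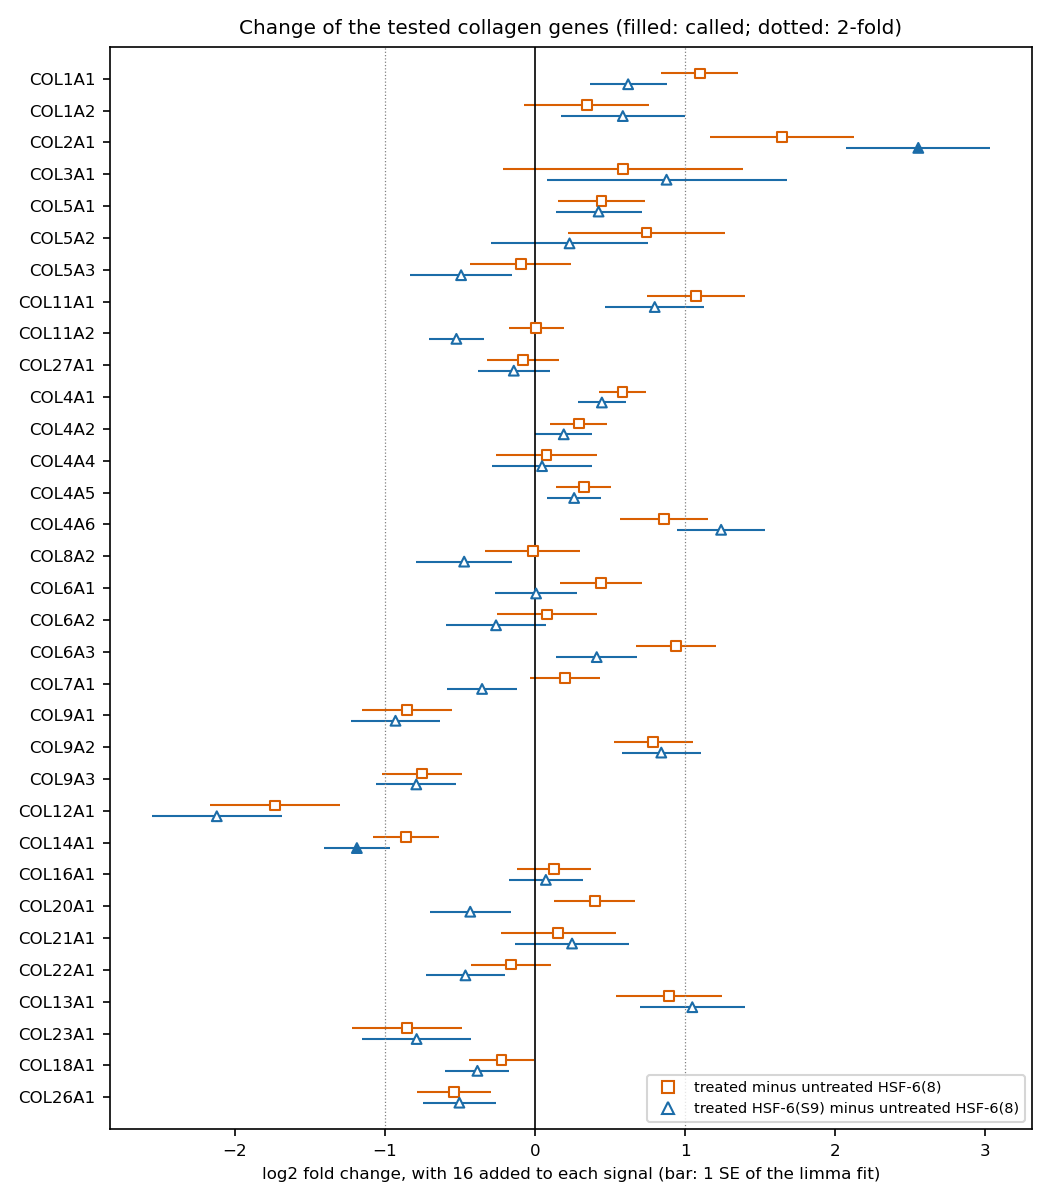
Points give the log2 fold change of each tested gene, with bars of 1 SE of the limma fit (n = 3 arrays per group), for treated HSF-6(8) (squares) and treated HSF-6(S9) (triangles), each against the same untreated arrays; dotted lines mark 2-fold and filled points are called. Filled points are those of COL2A1 (2.55) and COL14A1 (-1.19), both in treated HSF-6(S9).

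Among the fibrillar chains, COL1A1, the major chain of type I collagen, gave signals of 4461, 4899 and 3789 in untreated cells, 8829, 8707 and 10614 in treated HSF-6(8), and 9690, 6692 and 4655 in treated HSF-6(S9). Treated HSF-6(8) stood clear of the untreated arrays, while the third treated HSF-6(S9) array lay within the untreated range. The difference in HSF-6(8) was 1.10 ± 0.26 (SE; adjusted p = 0.112 by limma), not called. Its 4 kept probe sets ranged from -0.24 to 1.34, and the lowest carries the suffix x_at, which marks possible cross-hybridisation. COL1A2, the partner chain of COL1A1 in the same molecule, had 2321, 2184 and 1791 in untreated cells, 1784, 2175 and 4804 in treated HSF-6(8), and 1796, 3836 and 4474 in treated HSF-6(S9). In this probe set the groups overlapped, and the high value in treated HSF-6(8) came from the third array alone, with a difference of 0.34 ± 0.41 that turned to -0.08 without that array. Its 3 kept probe sets ranged from 0.34 to 0.88. Another of them had 1259, 1501 and 951 in untreated cells and 1472, 1893 and 3316 in treated HSF-6(8). In treated HSF-6(S9) that probe set had 1584, 2046 and 4803, all above its untreated arrays.

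COL2A1, the chain of cartilage type II collagen and also made in the early embryo, had signals of 265, 244 and 178 in untreated cells, 688, 1176 and 504 in treated HSF-6(8), and 733, 1238 and 3041 in treated HSF-6(S9). All 6 treated arrays exceeded all untreated ones, and the third treated HSF-6(S9) array was the highest. In HSF-6(8) the difference was 1.65 ± 0.48 (adjusted p = 0.212 by limma), the largest positive one among the members and not called. Its other kept probe set gave 1.93. COL11A1, a minor fibril chain that pairs with type II in cartilage, was at 35.5, 75.04 and 59.8 in untreated cells, at 125, 86.4 and 213 in treated HSF-6(8), and at 103, 83.0 and 142 in treated HSF-6(S9). Its difference in HSF-6(8) was 1.07 ± 0.33 (adjusted p = 0.243 by limma), with groups that did not overlap but signals close to the array median in untreated cells.

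COL3A1, the chain of type III collagen of vessels and soft tissues, was uneven within groups: 218, 181 and 194 in untreated cells, 362, 99.1 and 736 in treated HSF-6(8), and 292, 133 and 1286 in treated HSF-6(S9). In this probe set, the second array of both treated groups lay below all untreated arrays and the third was the highest. The difference in HSF-6(8) was 0.59 ± 0.80, and -0.03 without the third treated array. The other kept COL3A1 probe set, with the suffix x_at, had 123, 105 and 34.6 in untreated cells. It had 131, 143 and 134 in treated HSF-6(8), all above its untreated arrays, a difference of 0.68. In treated HSF-6(S9) it had 66.2, 116 and 615. COL5A2, a chain of the type V collagen that starts fibrils, had 970, 1039 and 1574 in untreated cells 934, 1665 and 4838 in treated HSF-6(8), and 934, 1439 and 1916 in treated HSF-6(S9). The third treated HSF-6(8) array again stood far above the others, as the endoderm and mesoderm marker sums did on that array. The COL5A2 difference was 0.74 ± 0.52, and 0.10 without that array. The fibroblast sum was also highest there, at 41649, but by less, since the third untreated array had 32005. The part of endoderm, mesoderm or fibroblast cells in the values of COL1A2, COL3A1 and COL5A2 was not tested. In bulk RNA, more cells of a kind and more RNA per cell cannot be told apart. COL5A1, COL5A3, COL11A2 and COL27A1 had differences of -0.10 to 0.44 in HSF-6(8), with overlapping groups. Over all kept probe sets COL5A1 ranged from 0.44 to 1.13, COL27A1 from -0.745 to 0.05, COL5A3 from -0.255 to -0.10 and COL11A2 from 0.01 to 0.34. The COL5A1 probe set at 1.13 had 301, 413 and 519 in treated HSF-6(8). All were above its 211, 169 and 150 in untreated cells.

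All 5 tested type IV chains had positive differences in HSF-6(8), none of them called. COL4A1, which forms the common basement membrane heterotrimer with COL4A2, had 3490, 3763 and 3597 in untreated cells, 5207, 5275 and 5803 in treated HSF-6(8), and 4795, 5686 and 4392 in treated HSF-6(S9). In this probe set all treated arrays exceeded the untreated ones, by 0.58 ± 0.16 in HSF-6(8) (adjusted p = 0.171 by limma). The other kept COL4A1 probe set gave 0.53 in HSF-6(8). On the third treated HSF-6(S9) array it had 442, below all its untreated arrays (610, 569 and 628). COL4A2, on the other side of the shared stretch of 126 bases printed above, had 3349, 3482 and 2434 in untreated cells 3896, 3841 and 3491 in treated HSF-6(8), and 3440, 4020 and 3063 in treated HSF-6(S9). In HSF-6(8) the groups were separate only by a narrow gap, with a difference of 0.29 ± 0.19. The other kept COL4A2 probe set overlapped there, with a difference of 0.19.

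COL4A5 and COL4A6, the X-linked pair, encode chains that assemble with each other in some basement membranes. COL4A5 had 2497, 2869 and 2558 in untreated cells 3711, 3179 and 3061 in treated HSF-6(8), and 3519, 2550 and 3521 in treated HSF-6(S9), a difference of 0.32 ± 0.18 in HSF-6(8). COL4A6 had 2045, 1974 and 1371 in untreated cells, 3988, 3828 and 2202 in treated HSF-6(8), and 3467, 3742 and 5710 in treated HSF-6(S9). Its difference in HSF-6(8) was 0.86 ± 0.29 (adjusted p = 0.310 by limma). This was the largest of its 3 kept probe sets, which ranged from 0.27 to 0.86 there, and the groups of the others overlapped. In treated HSF-6(S9) against untreated cells the 3 ranged from 0.55 to 1.26. COL4A4 had 74.1 to 144 in untreated cells and 78.8 to 147 in treated HSF-6(8), with overlapping groups. The differences within each pair were not tested against each other.

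Type VI collagen is built from 3 different chains. COL6A1 had 3749, 3729 and 2262 in untreated cells, 4549, 4613 and 3786 in treated HSF-6(8), and 4235, 3324 and 2280 in treated HSF-6(S9). COL6A3, the long chain, was at 90.6, 61.2 and 65.1 in untreated cells, at 135, 123 and 209 in treated HSF-6(8), and at 122, 66.8 and 121 in treated HSF-6(S9). Both were separate from the untreated arrays in HSF-6(8) but overlapped them in HSF-6(S9). The difference of COL6A3 in HSF-6(8) was 0.94 ± 0.27 (adjusted p = 0.203 by limma) and that of COL6A1 was 0.44 ± 0.27. COL6A2 had a difference of 0.08 ± 0.33.

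**Figure D3:**
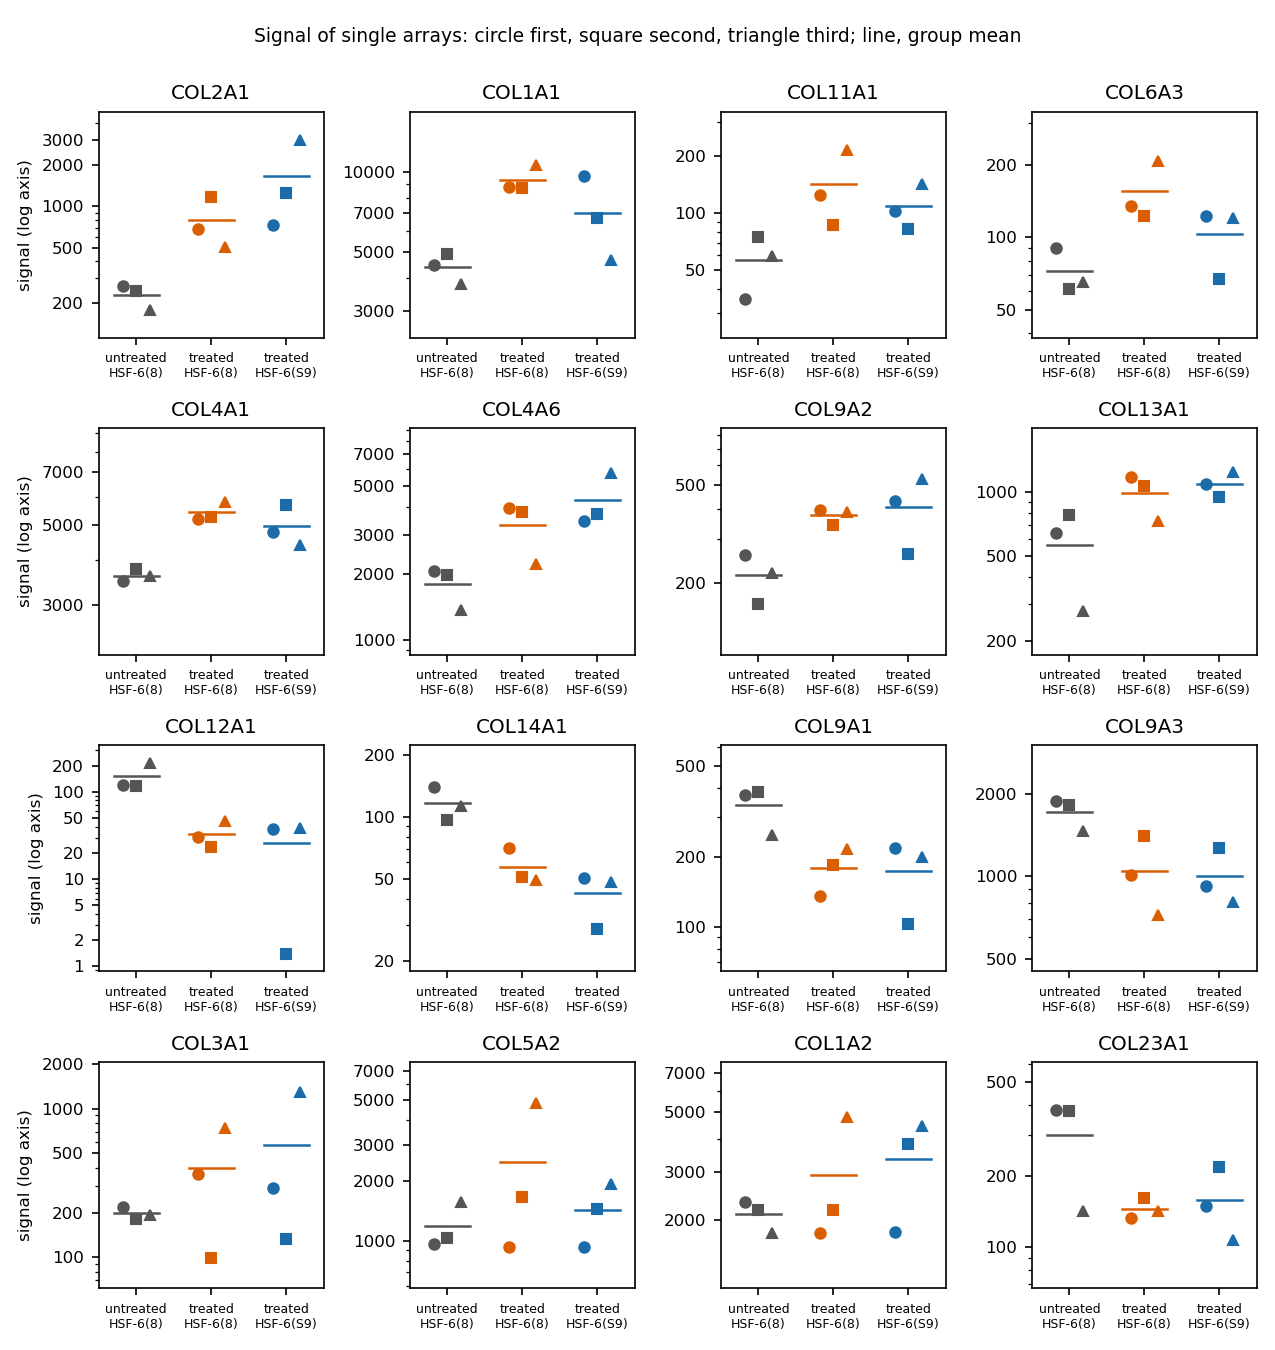
Each panel plots the signal of 1 gene on a log axis for the 3 arrays of each group (circle the first, square the second, triangle the third), with a line at the group mean. COL2A1 is above all untreated arrays on all 6 treated arrays and COL12A1 below, while the mean of COL5A2 in treated HSF-6(8) follows the third array at 4838.

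The 4 members whose treated HSF-6(8) arrays lay wholly below the untreated ones were all FACIT chains. COL12A1, a fibril-surface collagen of dense connective tissue, had 121, 116 and 214 in untreated cells, 30.2, 23.6 and 45.9 in treated HSF-6(8), and 37.2, 1.40 and 38.7 in treated HSF-6(S9). Every treated array lay below every untreated one and below its own array median. The difference in HSF-6(8) was -1.73 ± 0.43 (adjusted p = 0.132 by limma); it was 0.0393 with the replicate numbers as a block and 0.0342 without the second treated HSF-6(S9) array. Because COL12A1 passed the filter only through the arrays where it was high, none of these p-values is an independent test of a lower level. Only 1 of the 5 COL12A1 probe sets passed the filter. The 4 that did not pass it differed by -1.0012 to 0.11, 2 of them below 0; with no filter one of these 4 stood for the gene and the difference turned to 0.10.

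COL14A1, a related fibril-surface collagen, had 139, 96.7 and 113 in untreated cells, 70.9, 50.8 and 49.1 in treated HSF-6(8), and 50.5, 28.4 and 48.5 in treated HSF-6(S9). All treated arrays were below the untreated ones. The difference in HSF-6(8) was -0.86 ± 0.22 (adjusted p = 0.143 by limma), not called, and its 3 probe sets below the filter gave -0.79 to 0.40. The 3 chains of type IX collagen, which coats type II fibrils, went different ways. COL9A1 had 374, 383 and 251 in untreated cells, 135, 185 and 217 in treated HSF-6(8), and 220, 102 and 200 in treated HSF-6(S9). COL9A3 had 1875, 1825 and 1460, then 1008, 1406 and 720, then 922, 1270 and 805 in the same order of groups. Both were lower on all 6 treated arrays than on any untreated array, by -0.85 ± 0.30 and -0.75 ± 0.27 in HSF-6(8). COL9A2 instead had 260, 164 and 220 in untreated cells, 397, 345 and 387 in treated HSF-6(8), and 429, 261 and 530 in treated HSF-6(S9), and was higher on every treated array, by 0.79 ± 0.26 in HSF-6(8). None of the 3 was called. COL16A1, COL20A1, COL21A1 and COL22A1 had differences of -0.16 to 0.40 in HSF-6(8), with overlapping groups.

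Among the remaining classes, the transmembrane collagen COL13A1 had 640, 777 and 277 in untreated cells, 1182, 1068 and 734 in treated HSF-6(8), and 1093, 948 and 1242 in treated HSF-6(S9). The groups overlapped in HSF-6(8), where the difference was 0.89 ± 0.35, and its 3 kept probe sets disagreed in sign, from -0.26 to 0.89. COL23A1, another transmembrane collagen, had 381, 376 and 142 in untreated cells 133, 161 and 142 in treated HSF-6(8), and 150, 218 and 107 in treated HSF-6(S9). The third untreated array lay among the treated ones, and the difference was -0.85 ± 0.36. COL18A1, a basement membrane collagen whose cleaved end is endostatin, had 2406, 2090 and 2574 in untreated cells, 1813, 1794 and 2492 in treated HSF-6(8), and 1829, 2210 and 1432 in treated HSF-6(S9), a difference of -0.22 ± 0.21 in HSF-6(8). COL7A1, the anchoring fibril chain of skin, differed there by 0.20 ± 0.23, COL8A2 by -0.02 ± 0.32 and COL26A1 by -0.54 ± 0.25. The groups of all 4 genes overlapped.

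**Figure D4:**
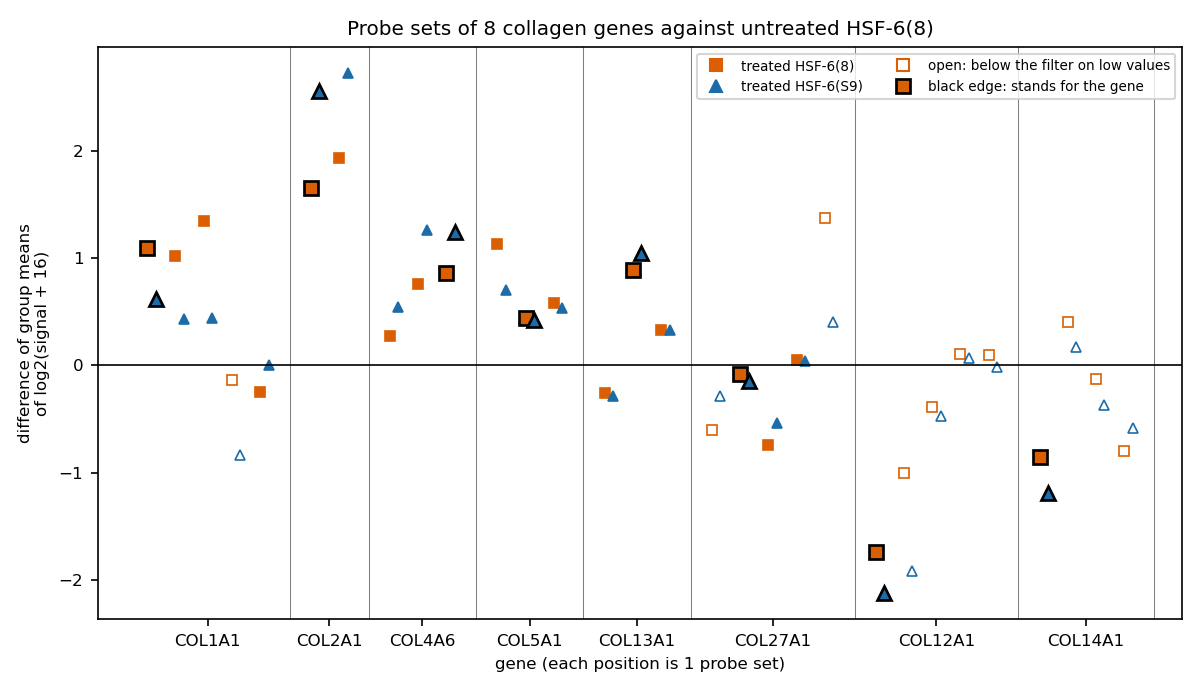
Each position is 1 probe set of 8 collagen genes, and the vertical axis the difference of group means of log2(signal + 16) from untreated HSF-6(8), for treated HSF-6(8) (squares) and treated HSF-6(S9) (triangles); open points are below the filter on low values and black edges mark the probe set that stands for the gene. Both probe sets of COL2A1 are above 0, while those of COL1A1, COL12A1, COL13A1, COL14A1 and COL27A1 lie on both sides of it. The points of COL12A1 and COL14A1 above 0 are open.

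Between the sublines, both treated, no collagen gene was called, where 0.0074% of all genes were called higher in treated HSF-6(S9) (1 gene) and 0% lower. At an unadjusted p under 0.05, none of the members was higher in HSF-6(S9) and 3 were lower, against 0.584% and 1.99% of all genes. The median difference was -0.10 among the members, of which 9 were positive, and -0.01 among all genes. The arrays of the sublines did not overlap for 4 members, all lower in HSF-6(S9) (12.1%, against 3.65% of all genes), and for none in the other direction, against 2.74% of all genes. COL20A1, a FACIT chain, had 144, 165 and 141 in treated HSF-6(8) and 96.1, 60.2 and 78.4 in treated HSF-6(S9), with 178, 89.4 and 80.9 in untreated cells; the sublines gave a difference of -0.83 ± 0.27. COL7A1 had 418, 433 and 589 against 368, 337 and 260, with 357, 354 and 548 in untreated cells, and a difference of -0.55 ± 0.23. COL11A2, the partner of COL11A1, had 172, 139 and 167 against 127, 84.1 and 107, with 161, 141 and 172 in untreated cells, and a difference of -0.53 ± 0.18. COL6A3 differed by -0.53 ± 0.27. For each of these 4 the adjusted p was 0.989 by limma. On the positive side, COL2A1 differed by 0.91 ± 0.48, COL4A6 by 0.38 ± 0.29, COL3A1 by 0.29 ± 0.80 and COL1A2 by 0.24 ± 0.41, all overlapping. COL2A1 ranged from 0.35 to 1.37 when single arrays were left out and was 0.08 over the first and second arrays alone. COL4A6 turned to -0.12 over the first and second arrays alone, and COL1A2 and COL3A1 changed sign when single arrays were left out (-0.04 to 0.67 and -0.58 to 0.99).

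Treated HSF-6(S9) against untreated HSF-6(8), a comparison that shares the untreated arrays with the first, gave 1 collagen gene called higher and 1 called lower, where 0.895% of all genes were called higher (121 genes) and 0.289% lower (39 genes). COL2A1 rose by 2.55 ± 0.48 (adjusted p = 0.0404 by limma), higher on 3 of 3 arrays. The call was absent in 7 of 13 other settings (adjusted p up to 0.0911) and in 6 of 9 fits that left out 1 array (up to 0.118), the first treated HSF-6(S9) array being one whose loss kept it; without the third treated HSF-6(S9) array the difference was 2.00 (adjusted p = 0.0751 by limma). COL14A1 fell by 1.19 on the log2 scale (SE 0.22; adjusted p = 0.0387 by limma), lower on 3 of 3 arrays, but it had passed the filter mainly through the untreated arrays. Its call was absent in 7 of 12 other settings (up to 0.131) and in 8 of 9 fits that left out 1 array (up to 0.132), the first treated HSF-6(S9) array included. At an unadjusted p under 0.05, 7 members were higher and 5 lower, against 8.03% and 6.1% of all genes.

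In the same comparison, the treated HSF-6(S9) arrays lay wholly above the untreated ones for 6 members (18.2%, against 11.3% of all genes) and wholly below for 5 (15.2%, against 8.88%), with the same limit for COL11A1 among the 6 and for COL12A1 and COL14A1 among the 5. The median difference was 0.05 among the members, of which 18 were positive, and 0.01 among all genes. By class the medians were 0.50 for fibrillar chains, 0.26 for type IV chains, all 5 positive, 0.01 for type VI chains and -0.46 for FACIT chains. The other kept probe set of COL4A2, which did not stand for the gene, gave -0.09. COL12A1 differed by -2.12 ± 0.43 (adjusted p = 0.0556 by limma), COL9A1 by -0.93 (adjusted p = 0.188) and COL9A3 by -0.79 (adjusted p = 0.211), none called. Over 12 other settings the COL12A1 difference ran from -3.24 to -0.02, the last with no filter, where another probe set stood for it, and it passed the threshold in 4 of them. COL4A6 differed by 1.24 ± 0.29 (adjusted p = 0.0832 by limma), COL13A1 by 1.05 ± 0.35 (adjusted p = 0.208) and COL3A1 by 0.88 ± 0.80, none called; without the third treated HSF-6(8) array, which enters only through the shared spread, the adjusted p of COL4A6 was 0.0419, and it was 0.0478 with trend and robust variance, a call in both.

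Partners of type II collagen in cartilage, of which HAPLN1 and SOX9 were chosen after their values were seen, were set beside COL2A1. The 7 chondrocyte markers summed to 3451 to 3821 in untreated cells, 2936 to 3759 in treated HSF-6(8) and 3015 to 3540 in treated HSF-6(S9), with COMP below the array median on all arrays. CNMD gave most of each sum, 3025 of 3821 on the first untreated array, so the sums mainly follow that gene. HAPLN1, which links proteoglycan to hyaluronan, was the only one of the 7 markers called in any comparison, rising by 1.65 ± 0.31 in treated HSF-6(S9) against untreated HSF-6(8) (adjusted p = 0.0414 by limma). Of the other markers tested, CNMD, a cartilage membrane glycoprotein, was lower without overlap in treated HSF-6(8) and in treated HSF-6(S9) against untreated cells (-0.55 and -0.62), and ACAN, the main cartilage proteoglycan, differed by -0.70 without overlap and by -0.46. MATN3, a cartilage matrilin, differed by 0.42 and 0.00. None of these 3 was called, and the median of the 5 markers tested was 0.00 in treated HSF-6(S9) against untreated cells. SOX9, the transcription factor that drives COL2A1 in cartilage, had 135, 183 and 109 in untreated cells, 221, 212 and 256 in treated HSF-6(8), and 271, 276 and 297 in treated HSF-6(S9). The groups did not overlap, but SOX9 was not called (0.93 ± 0.19, adjusted p = 0.0598 by limma, against untreated HSF-6(8)). SOX5, which acts with SOX9, had 148, 102 and 67.6 in untreated cells and 203, 152 and 413 in treated HSF-6(S9), highest on the same array as COL2A1. On that array 5 neuroectoderm markers, named after their values were seen, were also higher than on any other array. These were SOX1 at 737, MAP2 at 1143, PAX3 at 1006, DCX at 533 and PAX6 at 237. OTX2, NES, NEUROG2, TUBB3 and ZIC1 were not highest there. The part of cells with a cartilage or a neural programme in the COL2A1 values was not tested.

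The other genes of collagen biology were counted from lists by role. Of 21 tested genes for collagen synthesis and folding, such as prolyl hydroxylases and chaperones, none was called in any of the 3 comparisons, and the median difference in HSF-6(8) was 0.00. Of 13 tested genes for procollagen processing and crosslinking, none was called either, but 12 were positive in HSF-6(8), with a median of 0.42. LOXL2, a lysyl oxidase that crosslinks type IV collagen, differed there by 1.10 ± 0.24 (adjusted p = 0.0901 by limma; 0.0232, a call, with the replicate numbers as a block) and by 1.15 in treated HSF-6(S9) against untreated HSF-6(8) (adjusted p = 0.0617). In that last comparison LOXL2 was called in 5 of 13 other settings. ADAMTS14, a procollagen N-proteinase, differed by -0.69 in HSF-6(8), and by -1.01 to -0.35 when single arrays were left out.

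Among 17 tested fibril-associated matrix proteins, FBN2, the microfibril protein fibrillin 2, was called. It had 176, 211 and 178 in untreated cells, 783, 1179 and 723 in treated HSF-6(8), and 637, 875 and 1073 in treated HSF-6(S9), so that all treated arrays were above all untreated ones. It rose by 2.13 ± 0.24 in HSF-6(8) (adjusted p = 0.00345 by limma) and by 2.08 in treated HSF-6(S9) against untreated HSF-6(8) (adjusted p = 0.00425). The call held when any single array was left out. With the mean of its kept probe sets the differences were 1.22 (adjusted p = 0.132) and 1.37 (adjusted p = 0.0692), not called, and over the first and second arrays alone the second had an adjusted p of 0.0516.

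None of the 14 tested basement membrane partners of type IV collagen was called. NID1, nidogen, which links type IV collagen to laminin, differed by 1.07 ± 0.23 in HSF-6(8) (adjusted p = 0.0804 by limma; 0.0324, a call, both in the fit of only the 2 groups compared and without the first treated HSF-6(S9) array), and LAMA1, a laminin chain of the early embryo, by 0.79. None of 7 tested collagen receptors was called: MRC2, an endocytic collagen receptor, differed by 1.16 ± 0.23 (adjusted p = 0.0589 by limma; called in 4 of 13 other settings, down to 0.0346) and DDR2, a receptor kinase for fibrillar collagen, by 0.51. Of 11 tested genes of collagen degradation, none was called, with MMP2, a gelatinase, at 0.62 and the metalloproteinase inhibitor TIMP3 at 0.58. Leaving out single arrays moved MMP2 from 0.32 to 0.88 and TIMP3 from 0.13 (without the first untreated array) to 0.88. Of 14 tested regulators of collagen genes, none was called; TGFB2, a growth factor that induces matrix genes, differed by 1.28 ± 0.39 (adjusted p = 0.237 by limma) and TGFB1 by 0.80, the latter with 0.30 to 1.11 when single arrays were left out. Set against untreated HSF-6(8), treated HSF-6(S9) gave no call in these lists other than FBN2. Among fibril-associated proteins, FBN1, fibrillin 1, named after its values were seen, differed there by 1.29 ± 0.35 without overlap (adjusted p = 0.131 by limma). The differences named by rule were 0.99 for LAMA1 and 0.98 for SMOC1, a calcium-binding basement membrane protein, 0.99 for MRC2 and -0.76 for ITGA11, the collagen-binding integrin chain, -0.71 for the gelatinase MMP9 and 0.46 for TIMP3, and 1.10 for TGFB2 and 1.09 for SOX5. Leaving out single arrays moved SMOC1 from 0.30 to 1.40, ITGA11 from -0.97 to -0.50, MMP9 from -0.91 to -0.45, SOX5 from 0.71 to 1.38 and TIMP3 from 0.01 to 1.18. Between the sublines no gene of any of the 7 lists was called. The crosslinking enzyme LOX differed by -0.63 and MMP9 by -0.80, both lower in HSF-6(S9), and SMOC1 by 0.67 and RUNX2, a transcription factor of bone and cartilage, by 0.51. MMP9 was at -0.30 without the third treated HSF-6(8) array and at -0.09 over the first and second arrays alone. LOX, SMOC1 and RUNX2 changed sign when single arrays were left out (-1.17 to 0.38, -0.01 to 1.09 and -0.17 to 1.07).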

How the data were processed

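RNA of 9 samples was measured, 1 array each, and grouped by the titles. Per the submitters' processing notes, the authors used Affymetrix Expression Console and MAS5; the deposited values are intensity signals on a linear scale, with a trimmed mean (2% at each end) of 500.1 on every array. No detection calls were used here. Of 54675 probe sets, 41091 had 1 gene symbol in the platform annotation. For 41037 of these the symbol was taken from RefSeq by Entrez number, whether or not it differed from the platform's. Probe sets with several genes or none were not named.

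Signals were taken as log2(signal + 16). Probe sets were kept where at least 3 of 9 arrays exceeded their own array's median, and each gene was represented by its kept probe set with the highest mean log2 value, leaving 13518 genes. One limma model (lmFit and eBayes, limma 3.58.1, R 4.3.3) of 3 groups gave two-sided p-values adjusted by Benjamini-Hochberg over all of them, and a gene was called at an adjusted p under 0.05 and 2-fold. In data simulated for treated against untreated HSF-6(8) over 13518 genes, the fit recovered 74.4% of the changes of 1.5 on the log2 scale. The number of arrays limits the precision. Alternatives changed the added value, filter, probe set rule, scaling, block, samples and variance model.

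Signals of every array were given for called members, the 8 with the highest mean signal and the 4 largest rises and falls of each comparison (with those of COL5A2, COL9A2 and FBN2 added); from each pathway list, called genes or else examples among the 2 largest changes were named. The members, lists and tests were chosen with earlier results of these data known. The titles number arrays by prime marks. Deviations from the group mean of equally marked arrays correlated at 0.21, 0.26 and 0.49 for the treatment comparison within HSF-6(8), and at 0.18, 0.20 and 0.25 for the treated sublines, all over 0.1, so the marks were read as possible pairs there. Within HSF-6(8), however, unequally marked first and second arrays correlated at 0.26 and 0.32. The first and second marks therefore did not stand out as pairs. The main fit was made without pairs, and the replicate block was an alternative. For treated HSF-6(S9) against the untreated arrays they correlated at -0.03, 0.08 and 0.34 and were not. Promoter windows were matched by symbol, and motifs were counted on both strands.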

Additional observations from a re-analysis of the deposited data

How the results depend on the processing

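Of 64 results of single genes, 44 kept their direction and their side of the threshold in all 22 alternatives, which were 13 other settings and 9 fits that left out 1 array. Among collagen genes, calls in treated HSF-6(8) against untreated went from 0 to 1 with the replicate block (COL12A1) and to 0 to 1 over the leave-one-out fits. In treated HSF-6(S9) against untreated they went from 2 to 1 with 1 added to each value, with the filter at the 75th percentile or with the mean of the probe sets, and to 0 with no filter, every probe set, quantile normalization, a fit of only the 2 groups, or the first and second arrays only (an alternative chosen after seeing the data), and to 0 to 3 when 1 array was left out. They went to 3, with COL12A1 added, under median centring, the replicate block and the batch term, and stayed at 2 with 64 added, where COL12A1 took the place of COL14A1, and with trend and robust variance, where COL4A6 did. Between the sublines the collagen count was 0 throughout. Over all genes, calls in treated against untreated HSF-6(8) went from 114 to 65 with the filter at the 75th percentile, 191 with the third arrays as a batch term and 52 to 118 without single arrays. Between the sublines they went from 1 to 0 with 64 added, no filter, the 75th percentile, every probe set, only 2 groups, trend and robust variance, or first and second arrays only, and to 0 to 1 without single arrays. In treated HSF-6(S9) against untreated they went from 160 to 96 with no filter, 98 at the 75th percentile, 255 with the replicate block, 298 with the batch term, 93 over first and second arrays and 57 to 241 without single arrays. The replicate block also called COL12A1 in that comparison (adjusted p = 0.02 by limma), and it removed no collagen call. With no filter COL12A1 turned to 0.10 in HSF-6(8), through another probe set. Over first and second arrays only, COL4A6 (-0.12), SMOC2 (-0.0132), RUNX2 (-0.41) and SOX5 (-0.12) turned negative between the sublines, and COL3A1 (-0.0012) in treated HSF-6(S9) against untreated. Without single arrays, differences between the sublines changed sign for COL1A2 (-0.0435 to 0.67), COL3A1 (-0.58 to 0.99), LOX (-1.17 to 0.38), SMOC1 (-0.0122 to 1.09), SMOC2 (-0.0601 to 0.84) and RUNX2 (-0.17 to 1.07). The cause of these changes was not tested. The signals of COL11A1, COL12A1, COL14A1 and COL6A3 lay near the array median; whether that limits their calls was not tested.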
